A study of Homo sapiens with 6 samples.

Results

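The genes described here are the LIN28 RNA-binding proteins and the oncofetal genes that sit with them on the let-7 pathway: LIN28A, LIN28B, TRIM71, IGF2BP1, IGF2BP2, IGF2BP3, HMGA1 and HMGA2. They were chosen by symbol, and the rule uses no measured value, but earlier results of these data were known when they were chosen. These are 8 of the 48183 gene names in the table, and each has 1 identifier there. Bulk polyadenylated RNA was sequenced from 6 libraries of a human embryonic stem cell line that carries the EOS-GFP reporter. The sample labels name the line H1, whereas the text of the study names H9. The 4 naive libraries came from cells converted with AICAR, an activator of the kinase AMPK (2 libraries, AICAR 1 and AICAR 2), with doxycycline-induced CA-p38, a constitutively active form of the kinase p38 (1 library), or with valproic acid, a histone deacetylase inhibitor (VPA, 1 library). The converted cells were then passaged in PXGL medium and sorted for the naive surface markers CD75 and SUSD2. By the study's text, VPA was given in a medium with fewer inhibitors than PXGL. The days of induction and the number of passages were also not the same for all methods. The labels give mouse embryonic fibroblast feeders for naive culture in general, and whether each library's cells were on feeders when collected is not stated. The 2 primed libraries were the untreated parents, 1 of the EOS line (parent of the AICAR and VPA cells) and 1 of the CA-p38 EOS line (parent of the CA-p38 cells), kept on Matrigel in StemFit AK02N. Both CA-p38 libraries carry the doxycycline-inducible transgene, and each primed line and the CA-p38 and VPA methods are represented by 1 library.

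Let-7 microRNAs are made in quantity as cells differentiate, and they repress mRNAs that carry a match to their seed. LIN28A and LIN28B bind let-7 precursors through a cold shock domain and zinc knuckles. LIN28A recruits terminal uridylyl transferases, whose tails mark the precursor for decay. The LIN28 mRNAs are themselves let-7 targets, as are those of the other genes described here, so that LIN28 and let-7 hold each other down. TRIM71 is a TRIM-NHL protein that binds and silences mRNAs, the IGF2BP proteins bind and stabilise mRNAs, and the HMGA proteins are AT-hook architectural factors of chromatin. All are known as genes of the embryo and of tumours, and LIN28A is a classic reprogramming factor of pluripotent cells.

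The sequences below show what links these genes to let-7. In the RefSeq annotation of GRCh38.p14, the 12 let-7 family hairpins matched by symbol give 9 distinct mature 5′ sequences, and all of them share 1 seed (bases 2 to 8, in capitals).
let-7a-5p: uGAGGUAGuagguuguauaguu
let-7b-5p: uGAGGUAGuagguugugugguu
let-7c-5p: uGAGGUAGuagguuguaugguu
let-7d-5p: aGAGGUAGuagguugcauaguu
let-7e-5p: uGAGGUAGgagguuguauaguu
let-7f-5p: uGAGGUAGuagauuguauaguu
let-7g-5p: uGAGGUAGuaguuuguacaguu
let-7i-5p: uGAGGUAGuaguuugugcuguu
miR-98-5p: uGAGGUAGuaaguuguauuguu
The LIN28 zinc knuckles recognise the letters GGAG. Read on the hairpin strand, these letters were found in 9 of these 12 hairpins, against 43.4% of the 1562 hairpins in the same annotation. The search took the whole hairpin, so that letters within the mature strand count too, as in let-7e-5p above. It is therefore not a count of sites that LIN28 recognises.

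The complement of the seed, CTACCTC, was searched on the sense strand of the 3′ untranslated region (UTR) of each gene's Ensembl canonical transcript (GENCODE release 44, GRCh38). A match of this kind is a description of letters and not evidence of binding. All 8 genes hold at least 1 match and together they hold 22. Of the 19704 canonical 3′ UTRs, 9.63% hold at least 1 and 0.0609% hold 4 or more. These shares are not matched for length: the 3′ UTRs of the 8 genes have 1347 to 6701 bases. The median was 1246 bases for the protein-coding genes tested below. The genes were also chosen for their place on the let-7 pathway, so the contrast is not a finding about them. TRIM71 has 6 matches, LIN28B, IGF2BP1 and HMGA2 have 4 each, and LIN28A, IGF2BP2, IGF2BP3 and HMGA1 have 1 each. The match nearest the start of each 3′ UTR is printed with its flanks on the strand of the mRNA, with the letters that pair with the seed in capitals.
LIN28A, chr1:26427348-26427370, plus strand: gcacagcctattgaaCTACCTCa
LIN28B, chr6:105078812-105078834, plus strand: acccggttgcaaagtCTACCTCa
TRIM71, chr3:32891968-32891990, plus strand: aacattgcttaagtcCTACCTCa
IGF2BP1, chr17:49051061-49051083, plus strand: tgtgtgcgaagtaaaCTACCTCa
IGF2BP2, chr3:185644220-185644242, minus strand: aacacacagaagaagCTACCTCa
IGF2BP3, chr7:23311795-23311817, minus strand: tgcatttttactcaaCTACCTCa
HMGA1, chr6:34245829-34245851, plus strand: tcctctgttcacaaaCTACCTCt
HMGA2, chr12:65963298-65963320, plus strand: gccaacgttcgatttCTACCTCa
The base after the match is A in 7 of these 8, the exception being HMGA1. Counting all matches, A follows 4 of 6 in TRIM71, 3 of 4 in IGF2BP1, 2 of 4 in LIN28B and 1 of 4 in HMGA2.

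The libraries held between 46823699 and 54277064 counts, so that 3 counts in a library correspond to 0.0553 to 0.0641 CPM (counts scaled to the library size, here with TMM factors). All 8 genes stood above that floor in every library. The markers of each state followed the labels. Summed, 6 naive markers (among them KLF17 and DPPA5) stood at 1852 to 2153 CPM in naive and 7.66 to 9.88 CPM in primed libraries. The 6 primed markers (DUSP6 and ZIC2 among them) summed to 41.7 to 54 CPM and 2390.3 to 2932 CPM, respectively. The naive markers include SUSD2, at 427 to 668 CPM in naive libraries. The naive cells were sorted for it, so its level is no separate check of the labels. Markers of other cell types also differed. The sum of 8 fibroblast markers was 39.0 to 80.7 CPM in naive and 192 to 209.6 CPM in primed libraries. Of these 8, 4 were lower (COL1A1 and COL1A2 among them), 1 was higher and 3 were not past the threshold. TWIST2 was the higher one, at 7.76 ± 1.84 CPM in naive (SD, n = 4) and 0.581 ± 0.565 CPM in primed libraries (SD, n = 2). LUM was at 0 in VPA and AICAR 2 but at 1.17 CPM in CA-p38. POSTN was at 0 in AICAR 1 and PDGFRB at 0 in VPA. Trophectoderm markers summed to 22 to 28.4 CPM in naive and 4.73 to 6.29 CPM in primed libraries (3 of 5 tested were higher). In the same order, endoderm markers summed to 12.7 to 18.6 and 8.77 to 32.5 CPM, and mesoderm markers to 8.17 to 11 and 3.74 to 13.9 CPM. Neural markers summed to 156 to 197 CPM in naive and 121 to 139.8 CPM in primed libraries. Most of the neural sum was TUBB3, at 174 ± 17.7 CPM in naive (SD, n = 4) and 122 ± 12.7 CPM in primed libraries (SD, n = 2). The part of these cell types in the results was not tested. Nothing states that the libraries came from separate cultures, so p-values measure the spread between these libraries, and in bulk RNA fewer cells of a type and less RNA per cell cannot be told apart.

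The first question was how the LIN28 axis differs between the naive and the primed state. Of the 8 genes, 7 were lower and LIN28B was higher in naive libraries (quasi-likelihood test of edgeR, Benjamini-Hochberg adjusted over 26497 genes). The states differed widely as a whole: 53.1% of all genes tested passed the same threshold of 0.05, 27% lower and 26% higher in naive libraries. A mean of 100 CPM or more over all libraries was reached by 2124 genes, all 8 among them. In that set the shares were 75.6% in either direction, 40.9% lower and 34.7% higher. In all 8 genes the naive and the primed libraries did not overlap, which was so for 64.9% of all genes tested. The median log2 fold change, naive over primed, was -1.1 for the 8 genes and 0.11 for all genes. Passing the threshold was thus common among genes at these levels, and not overlapping was common among all genes tested.

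**Figure D1:**
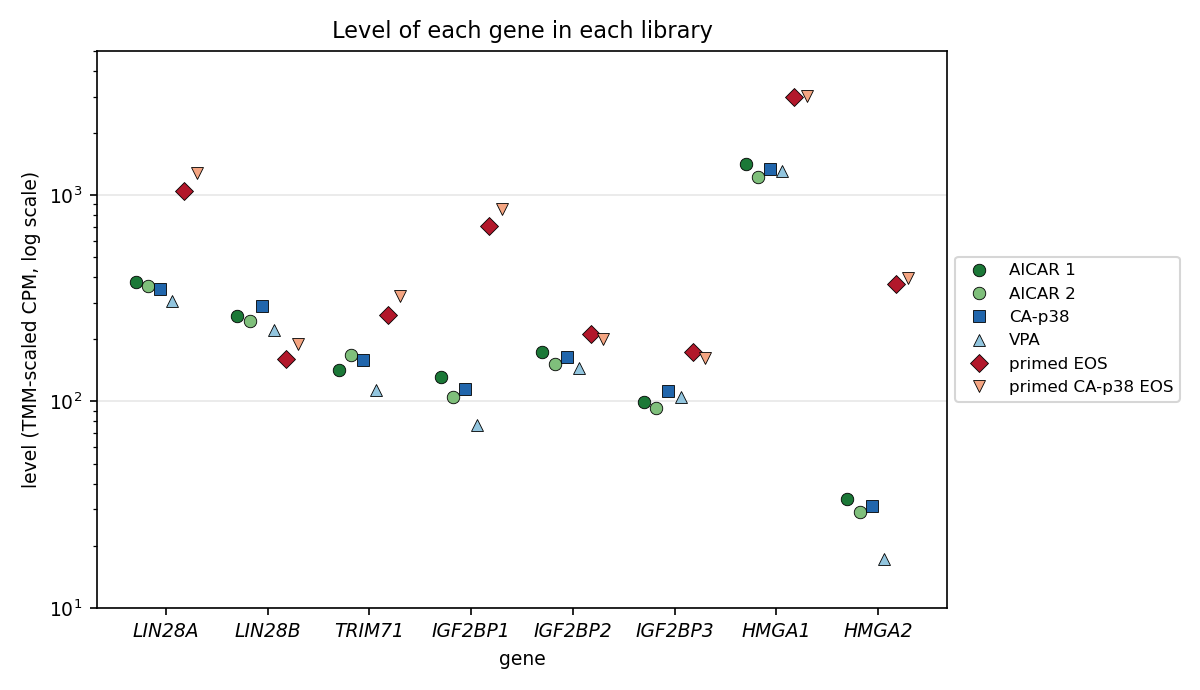
Level of each gene in each library, in TMM-scaled CPM on a log axis, with 1 point per library (green, AICAR; blue, CA-p38 and VPA; red and orange, primed). HMGA2 and IGF2BP1 show the widest gaps between naive and primed libraries, and LIN28B is the gene whose naive points lie above its primed points.

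LIN28A (chr1:26410817-26429728, plus strand) fell in the naive state. Its level was 307 CPM in VPA, 352 in CA-p38, 377 in AICAR 1 and 363 in AICAR 2, against 1042 CPM in the primed EOS library and 1278 in its CA-p38 EOS counterpart. The highest naive library thus stayed far below the lowest primed one. The means were 349.8 ± 30.7 CPM (SD, n = 4) and 1160 ± 167 CPM (SD, n = 2), a log2 fold change of -1.73 (standard error 0.11, 95% interval -1.96 to -1.50, adjusted p = 2.99e-08 by edgeR) or 3.32-fold more in primed cells.

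LIN28B (chr6:104936616-105083332, plus strand), the paralog with the same binding domains, went the other way. It stood at 223 CPM in VPA, 291 in CA-p38, 258 in AICAR 1 and 244 in AICAR 2, against 161 CPM in the primed EOS library and 189 in its CA-p38 EOS counterpart. All naive libraries were above both primed libraries, by a smaller margin than for LIN28A. The means were 254 ± 28.5 CPM (SD, n = 4) and 175 ± 19.7 CPM (SD, n = 2), which is 1.45-fold more in naive cells (log2 0.54, standard error 0.12, 95% interval 0.27 to 0.80, adjusted p = 0.00235 by edgeR). Without the primed EOS library the adjusted p was 0.0448, the highest of 15 alternatives. An antisense gene, LIN28B-AS1, had 108 to 126 counts in naive and 147 and 135 in primed libraries, and whether the counting used strand is not stated.

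The opposite movement of the paralogs changed the balance between them. Per kilobase of the canonical transcript, the ratio of LIN28A to LIN28B within a library was 1.88 in VPA, 1.65 in CA-p38, 2 in AICAR 1 and 2.04 in AICAR 2, and 8.84 and 9.25 in the primed libraries. A ratio within a library does not depend on the scaling between libraries. LIN28A made up 65.4% ± 2.17 (SD, n = 4) of the summed LIN28 level per kilobase in naive and 90.0% ± 0.288 (SD, n = 2) in primed cells (exact permutation test, two-sided, p = 0.0667, the smallest that 4 against 2 libraries allow). The sum of both per kilobase was 135 ± 11.4 CPM per kb in naive and 324 ± 45.7 CPM per kb in primed cells (exact permutation p = 0.0667).

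The patterns most like those of the LIN28 genes were found by the Euclidean distance of centred log2 CPM over the 6 libraries, among 12602 genes that averaged 5 CPM or more. For LIN28A they were LSS, the lanosterol synthase of cholesterol synthesis (distance 0.123), and ZNF281, a zinc finger factor (0.156). For LIN28B they were LRPPRC, a mitochondrial mRNA-binding protein (0.0954), and ZNF117 (0.104). LSS stood at 60.5 ± 5 CPM in naive (SD, n = 4) and 191 ± 17.5 CPM in primed libraries (SD, n = 2), and LRPPRC at 543 ± 55.5 and 382 ± 30.9 CPM.

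TRIM71 (chr3:32817997-32897824, plus strand), the vertebrate LIN-41 and the gene with the most seed matches above, was lower in naive cells. It was measured at 114 CPM in VPA, 158 in CA-p38, 142 in AICAR 1 and 167 in AICAR 2, against 261 CPM in the primed EOS library and 325 in its CA-p38 EOS counterpart. The groups did not overlap, and VPA was the lowest library. Primed cells held 2.01-fold more (log2 -1.01, standard error 0.14, 95% interval -1.32 to -0.70, adjusted p = 5.53e-05 by edgeR). Of the other TRIM-NHL genes, TRIM2 (log2 -1.30) and TRIM32 (log2 -1.28) were also lower, and TRIM3 was not past the threshold (log2 -0.16, adjusted p = 0.483 by edgeR).

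The 3 IGF2BP genes, whose proteins share RRM and KH domains and bind overlapping sets of mRNAs, all fell in naive cells but by unequal amounts. IGF2BP1 (chr17:48997385-49056145, plus strand) stood at 76.6 CPM in VPA, 115 in CA-p38, 131 in AICAR 1 and 105 in AICAR 2, against 708 CPM in the primed EOS library and 853 in its CA-p38 EOS counterpart. Every primed library held several times the highest naive level, and the fitted difference was 7.30-fold (log2 -2.87, standard error 0.16, 95% interval -3.22 to -2.52, adjusted p = 1.25e-08 by edgeR).

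IGF2BP3 (chr7:23310209-23470491, minus strand) was 105 CPM in VPA, 112 in CA-p38, 98.9 in AICAR 1 and 93.1 in AICAR 2, against 174 and 163 CPM in the primed libraries. It was 1.65-fold higher in primed cells (log2 -0.72, standard error 0.10, 95% interval -0.94 to -0.49, adjusted p = 6.82e-05 by edgeR). IGF2BP2 (chr3:185643130-185825042, minus strand), the member with wide expression in adult tissues, was 145, 165, 173 and 151 CPM in VPA, CA-p38, AICAR 1 and AICAR 2, against 211 and 201 CPM in the primed libraries. Its difference was the smallest of the 8 genes, 1.30-fold (log2 -0.38, standard error 0.10, 95% interval -0.60 to -0.15, adjusted p = 0.00756 by edgeR), and without primed EOS the adjusted p was 0.0498. The antisense gene IGF2BP2-AS1 had 5 to 22 counts in naive and 4 and 2 in primed libraries.

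The make-up of the IGF2BP family therefore differed between the states. IGF2BP1 was 13.0% to 19% of the summed IGF2BP level per kilobase in naive libraries and 47.2% and 53.3% in primed libraries. IGF2BP2 was the largest share in every naive library (49.5% to 51.5%), and IGF2BP1 in both primed libraries. The shares of IGF2BP1, IGF2BP2 and IGF2BP3 were 16.5% ± 2.55, 50.6% ± 0.85 and 32.9% ± 3.05 (SD, n = 4) in naive and 50.3% ± 4.29, 27.3% ± 2.2 and 22.4% ± 2.09 (SD, n = 2) in primed cells, each with the smallest p that the exact permutation test allows, 0.0667. The ratio of IGF2BP3 to IGF2BP2 differed less (0.65 ± 0.0678, n = 4, against 0.821 ± 0.0106, n = 2, exact permutation p = 0.133). The family sum was 73.1 ± 5.84 CPM per kb in naive and 176 ± 8.10 CPM per kb in primed cells.

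**Figure D2:**
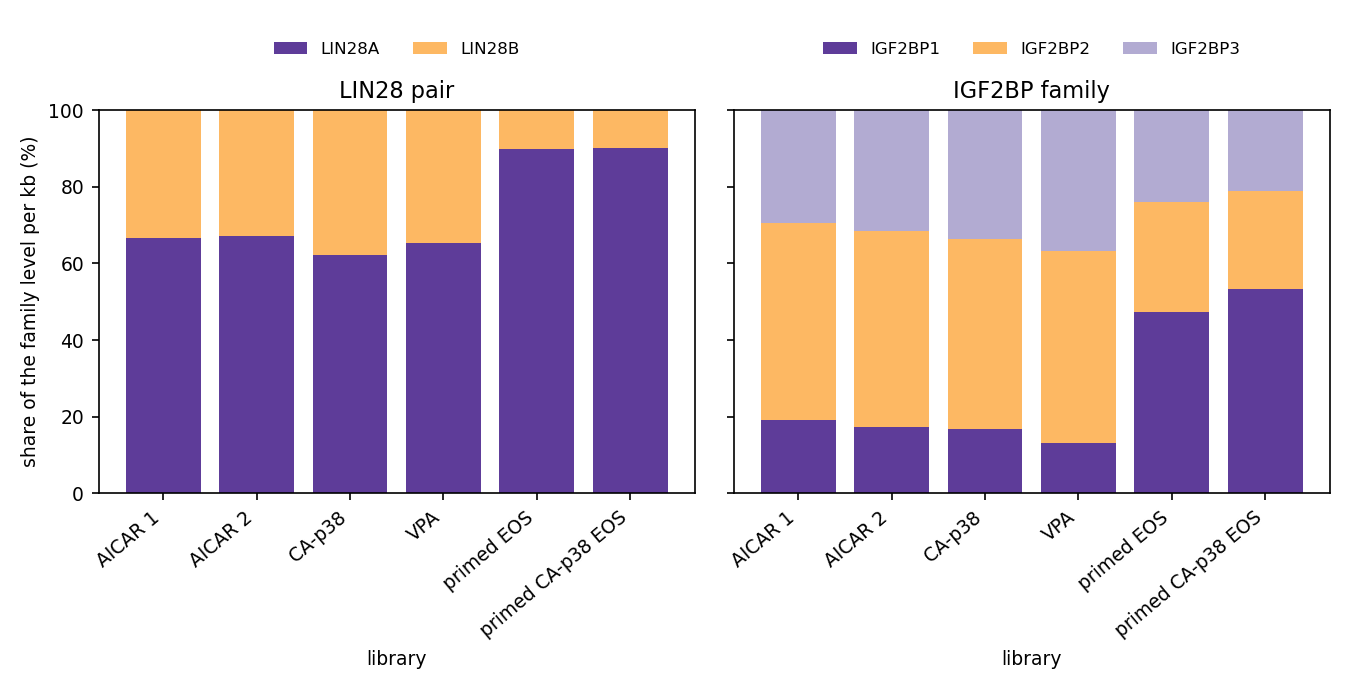
Share of each gene in the summed level per kilobase (%), of the LIN28 pair (left) and of the IGF2BP family (right), with 1 bar per library. LIN28A makes up 62.3% to 67.1% of the pair in naive and 89.8% and 90.2% in primed libraries, and IGF2BP1 makes up 13.0% to 19% and 47.2% and 53.3% of its family.

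HMGA2 (chr12:65824460-65966291, plus strand), a frequently cited let-7 target, differed most of the 8 genes. Its level was 17.2 CPM in VPA, 31.3 in CA-p38, 33.6 in AICAR 1 and 29 in AICAR 2, against 369 CPM in the primed EOS library and 398 in its CA-p38 EOS counterpart. The VPA library was the lowest, and all naive libraries were more than 8-fold below the primed ones. The means were 27.8 ± 7.29 CPM (SD, n = 4) and 384 ± 20.5 CPM (SD, n = 2), or 13.8-fold more in primed cells (log2 -3.79, standard error 0.20, 95% interval -4.21 to -3.36, adjusted p = 5.11e-09 by edgeR). A fitted fall of at least 8-fold past the threshold was found in 5.10% of all genes tested. The antisense gene HMGA2-AS1 had 42 to 69 counts in naive and 12 and 37 in primed libraries, against 901 to 1828 counts of HMGA2 in naive libraries.

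HMGA1 (chr6:34236873-34246231, plus strand) was the most abundant of the 8 genes and differed less. It stood at 1301, 1339, 1417 and 1222 CPM in VPA, CA-p38, AICAR 1 and AICAR 2, and at 2970.5 and 3032 CPM in the primed libraries. The naive libraries lay close together, and primed cells held 2.27-fold more (log2 -1.19, standard error 0.08, 95% interval -1.37 to -1, adjusted p = 9.48e-08 by edgeR). The 8 annotated HMGA1 pseudogenes together had 0.361% to 0.80% of the HMGA1 count of a library, and 2 LIN28A pseudogenes had 0.051% to 0.21% of the LIN28A count. Reads shared with such copies may have been split between them. HMGA2 was 0.97% ± 0.238 (SD, n = 4) of the summed HMGA level per kilobase in naive and 5.62% ± 0.207 (SD, n = 2) in primed cells (exact permutation p = 0.0667).

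Set per length, the order of the genes differed between the states. In naive cells the mean levels in CPM per kb were 687 for HMGA1, 88.0 for LIN28A, 46.7 for LIN28B, 37.0 for IGF2BP2, 24 for IGF2BP3, 16.7 for TRIM71, 12.2 for IGF2BP1 and 6.75 for HMGA2, and among neighbours only TRIM71 and IGF2BP1 overlapped between libraries. In primed cells they were 1563 for HMGA1, 292 for LIN28A, 93.2 for HMGA2, 88.8 for IGF2BP1, 48.0 for IGF2BP2, 39.4 for IGF2BP3, 33.7 for TRIM71 and 32.2 for LIN28B. There HMGA2 overlapped with IGF2BP1, and TRIM71 with LIN28B. HMGA2 thus moved from the last place to the third and LIN28B from the third to the last. These levels take the canonical transcript as the length, and cells that use a shorter isoform would have a higher level per kilobase.

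The next question was whether the induction methods differ in these genes. Each naive library was set beside its own parental primed library, with 3 of the 4 sharing primed EOS, and without a test because each line had 1 primed library. Of the 32 ratios, 28 were below 1, and the 4 above 1 were those of LIN28B. HMGA2 was 21.4-fold lower than its parent in VPA, 12.7-fold in CA-p38, 11-fold in AICAR 1 and 12.7-fold in AICAR 2. IGF2BP1 was lower by 9.24-fold, 7.39-fold, 5.42-fold and 6.76-fold in the same order, and LIN28A by 3.40-fold, 3.64-fold, 2.76-fold and 2.87-fold. LIN28B was higher than its parent in all, by 1.38-fold in VPA, 1.54-fold in CA-p38, 1.6-fold in AICAR 1 and 1.51-fold in AICAR 2. VPA was the lowest naive library in 6 of the 8 genes, the exceptions being IGF2BP3 and HMGA1, where AICAR 2 was lowest. How often VPA was the lowest over all genes tested was not counted, so this is not a trait particular to these genes. Within the naive group the highest library exceeded the lowest by 1.95-fold for HMGA2, 1.71-fold for IGF2BP1 and 1.47-fold for TRIM71, and by 1.16-fold to 1.30-fold for the other genes. Of the primed libraries, primed CA-p38 EOS was the higher in 6 of the 8 genes, by 1.24-fold at most.

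**Figure D3:**
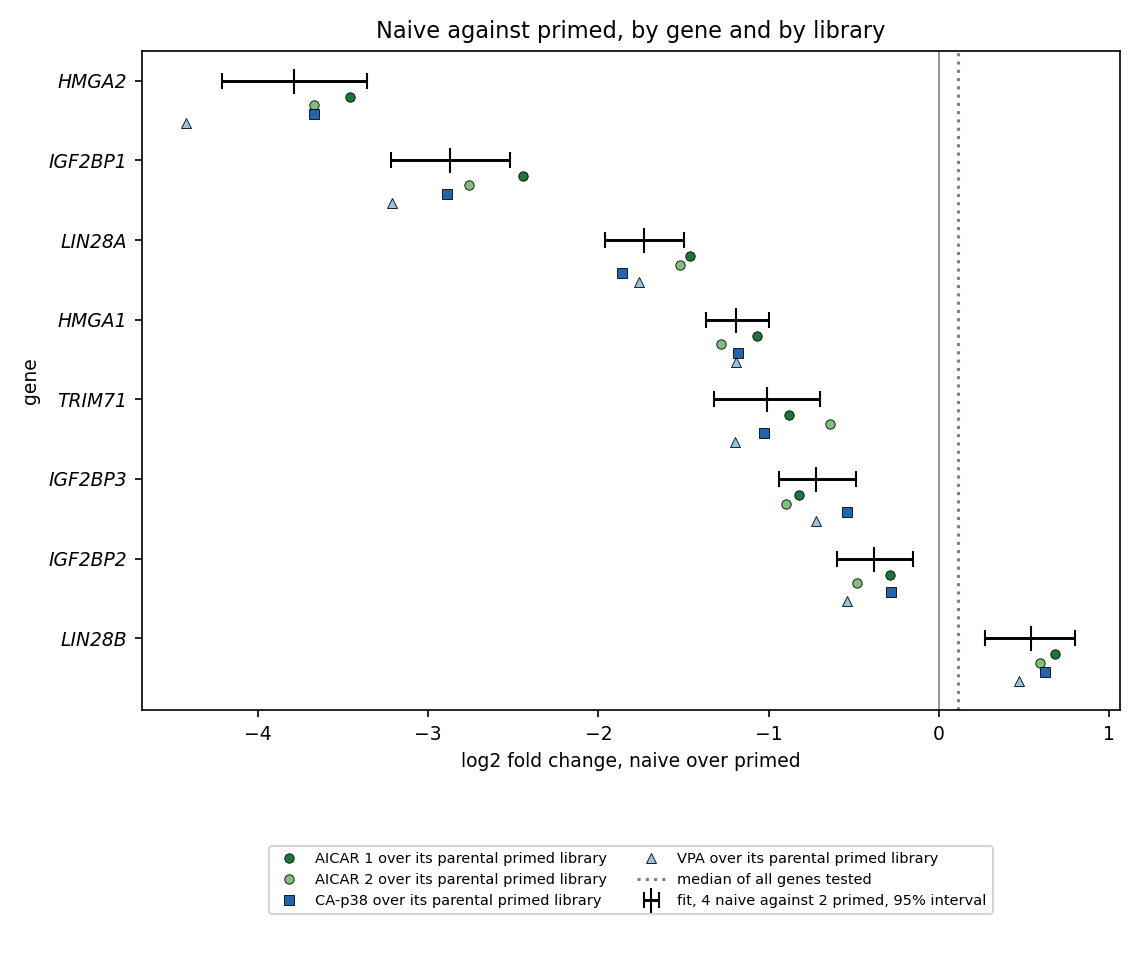
Log2 fold change of naive over primed for each gene: black marks give the fit of 4 naive against 2 primed libraries with its 95% interval, coloured points each naive library over its parental primed library, and the dotted line the median of all genes tested (0.11). Points of all 4 naive libraries lie left of 0 for 7 genes and right of 0 for LIN28B, and VPA lies furthest left for HMGA2 (-4.42) and IGF2BP1 (-3.21).

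A test of the interaction between state and parental line asked whether the naive to primed difference was unequal in the EOS and CA-p38 EOS lines. None of the 8 genes passed the threshold in edgeR (0 at an unadjusted p under 0.05 as well), where 1 gene (0.00377%) of all genes tested passed and 853 (3.22%) had an unadjusted p under 0.05. The widest estimates were those of LIN28A, with log2 differences between naive and primed of -1.58 in EOS and -1.86 in CA-p38 EOS (difference -0.29, 95% interval -0.79 to 0.22), and of IGF2BP3, with -0.81 and -0.54 (difference 0.27, 95% interval -0.22 to 0.76). For LIN28B the effects were 0.58 and 0.62 (difference 0.04, 95% interval -0.44 to 0.52), and for HMGA2 -3.79 and -3.67 (difference 0.12, 95% interval -0.88 to 1.13). The residual spread of this fit comes only from the 3 naive EOS libraries, and parental line and induction method cannot be told apart.

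Let-7 itself could not be followed in these libraries, since mature microRNAs carry no poly(A) tail. Of 12 let-7 hairpin genes 10 have a row, none had enough counts to be tested, and the highest counts were those of MIRLET7I, 10 in the primed library of CA-p38 EOS, 4 in that of EOS and 0 in the naive libraries, and of MIRLET7C, 3 in VPA. Longer transcripts that host let-7 hairpins were measured. Of 7 host genes tested, 4 were higher in naive cells, none was lower and 3 did not pass the threshold, and the list's median log2 fold change was 1.07. Of all genes tested, 26% were higher and 27% lower. SPACA6, host of the let-7e cluster, stood at 10.1 ± 1.13 CPM in naive (SD, n = 4) and 2.04 ± 0.52 CPM in primed libraries (SD, n = 2; log2 2.30, adjusted p = 5.86e-06 by edgeR). MIR100HG, host of a let-7a hairpin, stood at 7.51 ± 1.08 and 2.63 ± 0.337 CPM (log2 1.51, adjusted p = 0.000194 by edgeR). The coding hosts WDR82 (log2 -0.02, adjusted p = 0.853) and HUWE1 (log2 0.22, adjusted p = 0.119) did not pass. A host transcript is not a measure of the mature microRNA.

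Of 9 genes that act with or against LIN28 on let-7 precursors, 4 were lower in naive cells, none was higher and 5 did not pass, and the list's median log2 fold change was -0.27. The shares of all genes tested were 27% lower and 26% higher. MSI1, an RNA-binding protein that can bring LIN28 to the nucleus, was 4.52 ± 1.14 CPM in naive (SD, n = 4) and 40.9 ± 3.87 CPM in primed libraries (SD, n = 2; log2 -3.18, adjusted p = 4.19e-08 by edgeR). TRIM25, a cofactor of uridylation, was 11.1 ± 4.05 and 23.2 ± 4.52 CPM (log2 -1.06, adjusted p = 0.00408 by edgeR). The transferase gene TENT2 (log2 0.09, adjusted p = 0.59) and KHSRP, a let-7 processing factor (log2 0.18, adjusted p = 0.163), did not pass. The uridylyl transferases TUT4 (log2 -0.11) and TUT7 (log2 -0.27) and the exonuclease DIS3L2 (log2 -0.12) were also among the genes that did not pass; they were singled out after their values were seen, for their place in LIN28 action.

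Of 13 genes of microRNA processing and silencing, 8 were lower, 1 was higher and 4 did not pass (median log2 fold change -0.34). Among all tested protein-coding genes 37.1% were lower and 27.4% higher. DICER1, which cuts the precursor, was 50.2 ± 9.02 CPM in naive (SD, n = 4) and 152 ± 14.7 CPM in primed libraries (SD, n = 2; log2 -1.60, adjusted p = 1.06e-06 by edgeR), and TNRC6C, a silencing scaffold, also fell (log2 -1.11, adjusted p = 2.15e-05 by edgeR). AGO4 was the gene that rose (log2 0.61, adjusted p = 0.00977 by edgeR), and AGO1 did not pass (log2 0.10, adjusted p = 0.454 by edgeR).

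Of 21 other genes known as let-7 targets, DICER1 again among them, 14 were lower, 4 were higher and 3 did not pass, and the list's median log2 fold change was -1.27. For all tested protein-coding genes the shares were 37.1% lower and 27.4% higher. CCND2, a G1 cyclin, was 3.04 ± 1.11 CPM in naive (SD, n = 4) and 125 ± 1.89 CPM in primed libraries (SD, n = 2; log2 -5.37, adjusted p = 1.41e-09 by edgeR). NR6A1, the germ cell nuclear factor, was 25.5 ± 4.49 and 384 ± 5.01 CPM (log2 -3.91, adjusted p = 2.25e-10 by edgeR). INSR, the insulin receptor, went the other way, with 83.8 ± 4.29 and 21.2 ± 1.29 CPM (log2 1.99, adjusted p = 2.41e-08 by edgeR), as did ARID3A (log2 0.91, adjusted p = 1.67e-05 by edgeR). Known targets of this kind are well studied growth genes, and the list is not a sample of all genes with a seed match.

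The wider set of genes with a seed match was described for that reason. Of 16773 tested protein-coding genes, 37.1% were lower and 27.4% higher in naive cells, and their median log2 fold change was -0.12. With 2 or more matches in the 3′ UTR, and the 8 genes left out, 38.4% of 211 genes were lower and 28.4% higher, with a median of -0.14. Long UTRs hold more matches by length alone, so genes with a 3′ UTR of 2000 bases or more were also set apart. There 40% of 175 genes with 2 or more matches were lower and 26.9% higher (median -0.15), against 45.7% and 22.3% of 4534 genes with none (median -0.33). Among the 8 genes, those with 4 matches ran from HMGA2 (log2 -3.79) to LIN28B (log2 0.54), and those with 1 match from LIN28A (log2 -1.73) to IGF2BP2 (log2 -0.38).

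**Figure D4:**
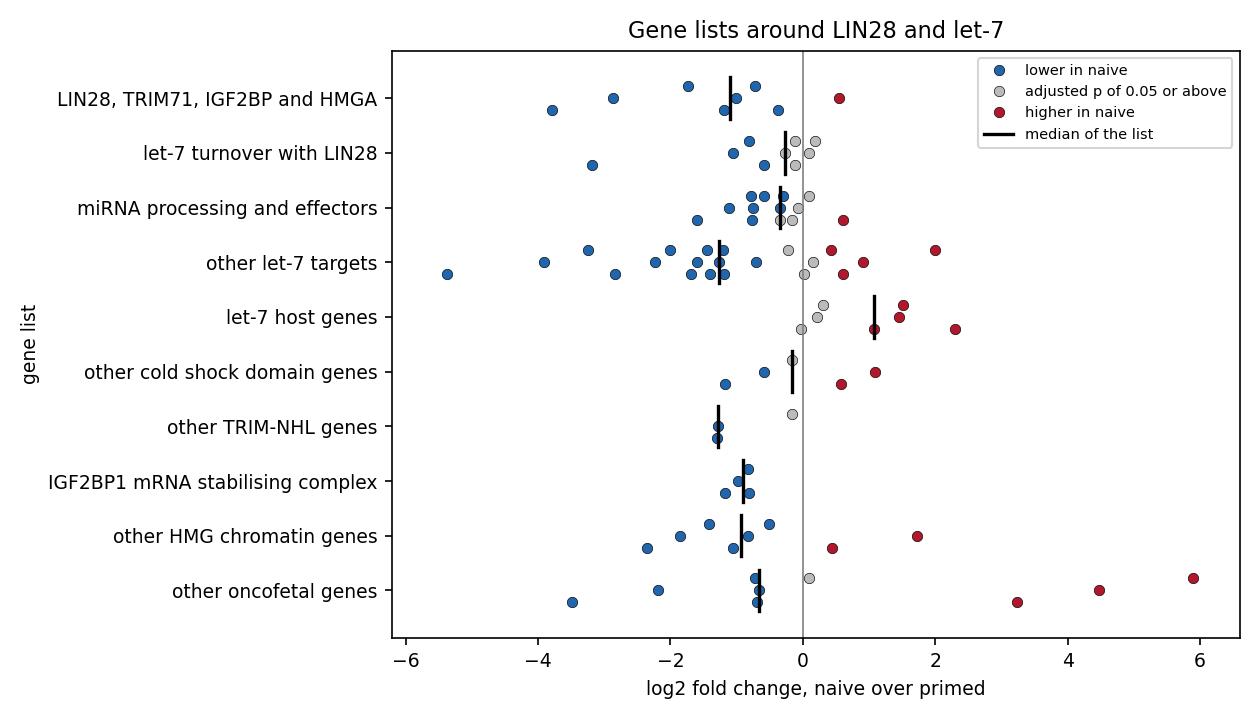
Log2 fold change of naive over primed for each tested gene of the lists around LIN28 and let-7, with 1 point per gene (blue, lower; red, higher; grey, adjusted p of 0.05 or above) and a black bar at each list's median. The median lies at -1.1 for the 8 genes, at -1.27 for the other let-7 targets and at 1.07 for the let-7 host genes.

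Genes related to the 8 by family or complex were counted as well. For comparison, 27% of all genes tested were lower and 26% higher in naive libraries. Among genes with a mean of 100 CPM or more, the shares were 40.9% and 34.7%. All 4 IGF2BP1 partners named below reached that mean. All 4 partners of IGF2BP1 in its mRNA-stabilising complex were lower, namely YBX1 (log2 -1.18), DHX9 (log2 -0.98), HNRNPU (log2 -0.82) and SYNCRIP (log2 -0.81), with a median of -0.90. Of 5 other cold shock domain genes, 2 were higher, 2 lower and 1 did not pass (median -0.16), with YBX1 (log2 -1.18) among the lower and YBX2 (log2 1.09) among the higher genes. Of 8 other HMG chromatin genes, 6 were lower and 2 higher (median -0.94): HMGN5 (log2 -2.36) and HMGN3 (log2 -1.86) fell most, and HMGB3 (log2 0.44) and HMGN4 (log2 1.72) rose.

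Of 9 other oncofetal genes, 5 were lower, 3 higher and 1 did not pass (median -0.66). The shares over all genes tested were 27% lower and 26% higher. GPC3, the oncofetal glypican, was 5.70 ± 2.64 CPM in naive (SD, n = 4) and 63.8 ± 3.06 CPM in primed libraries (SD, n = 2; log2 -3.48, adjusted p = 4.56e-07 by edgeR), and the imprinted gene PEG10 fell too (log2 -2.18). The imprinted genes H19 and DLK1 rose (log2 5.89 and 4.47). H19 stood at 121 ± 6.11 CPM in naive libraries (SD, n = 4) and differed between the primed libraries, at 3.92 CPM for EOS and 0.143 CPM for CA-p38 EOS. Counting each gene once, the lists without the 8 genes held 76 tested genes, with a median log2 fold change of -0.58. Of these, 42 were lower, 16 higher and 18 not past the threshold. Of all tested protein-coding genes, 37.1% were lower and 27.4% higher. The lists were chosen with earlier results of these data known.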

How the data were processed

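RNA of 6 libraries (4 naive, 2 primed) was sequenced with a stranded polyadenylated RNA kit. The authors trimmed adapters (cutadapt 1.15 through Trim Galore 0.4.4), mapped reads with Bowtie2 to Ensembl GRCh38 cDNA and noncoding RNA, discarded alignments of mapping quality below 1 and deposited raw, whole counts for each Ensembl gene. Whether strand was used is not stated. The 26 spike-in rows of the 61222 features held at most 1 count and were left out, and 23 columns of other studies were not used. Counts of pairs of libraries within a group differed by more than sampling noise, so none was taken for a copy of another and each was kept. This check does not show that the libraries came from separate cultures.

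Identifiers sharing a name were summed. The 2 states were compared in edgeR 4.0.16 (R 4.3.3: TMM scaling, filterByExpr, glmQLFit, glmQLFTest) over all 26497 genes that passed the filter, the 8 genes among them, with Benjamini-Hochberg adjustment and a threshold of 0.05. The interaction of state and parental line used the same tool. Ratios over the parental library used a prior count of 0.5. Exact permutation tests (scipy 1.17.1) were two-sided on the absolute difference of means, of log2 values for ratios, over 11 quantities, and their p-values were not adjusted, since none can fall below 0.0667. Intervals and floors cover counting error only, or the model's.

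The genes and lists were chosen with earlier results of these data known. For each list, all genes were counted and the 2 highest and 2 lowest log2 fold changes were named (all genes of lists of 4 or fewer), except that some values of the cold shock domain list are not reported here. The ratios within families, the seed match sets and the background of genes above 100 CPM were chosen after seeing the data. Alternatives covered scaling (median-ratio factors, library totals), test (DESeq2 1.42.0, limma-voom 3.58.1), filter, parental line as a block, summed AICAR libraries, identifiers kept apart, and each library left out. Let-7 sequences are from RefSeq. Of the lists, 2 let-7 hairpin genes and 2 host genes were not analysed here.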

Additional observations from a re-analysis of the deposited data

Results flagged for a closer look

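In 46 gene levels and ratios of the 4 naive libraries, the gap of the highest or lowest library to its nearest neighbour was set against the whole range. Chance passes Dixon's 95% critical value for 4 samples in about 1 in 20 groups. Of the 46 quantities 2 passed it, which is no more than that share. The ratio of HMGA1 to HMGA2 per kilobase was 162 in VPA against 91.8 in CA-p38, 90.3 in AICAR 1 and 90.4 in AICAR 2, a gap of 0.979 of the range. The other 3 naive libraries agreed closely in this ratio, and VPA is also the library with the lowest HMGA2 level (17.2 CPM). DHX9, a helicase of the IGF2BP1 complex, stood at 275 CPM in VPA against 315, 313 and 315 CPM in CA-p38, AICAR 1 and AICAR 2, a gap of 0.954 of the range. Each method but AICAR had 1 library, so a difference of the VPA method and of that library cannot be told apart.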

How the results depend on the processing

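All 8 genes kept their direction and stayed past the threshold in the 15 alternatives. Log2 fold changes ran from -1.88 to -1.57 for LIN28A, 0.41 to 0.66 for LIN28B, -1.17 to -0.84 for TRIM71, -3.01 to -2.72 for IGF2BP1, -0.43 to -0.28 for IGF2BP2, -0.78 to -0.62 for IGF2BP3, -1.24 to -1.09 for HMGA1 and -3.91 to -3.63 for HMGA2. The least certain calls were LIN28B and IGF2BP2 without primed EOS (adjusted p of 0.0448 and 0.0498 by edgeR), where the lone primed library is assumed to vary like the naive ones. Of the 76 related genes, 58 passed the threshold, and 52 to 60 in the alternatives, with 52 without primed CA-p38 EOS. Over all genes 14058 passed, and 11313 to 15585 in the alternatives. Over all genes tested the log2 fold change had a median of 0.11 under TMM scaling, 0.06 with median-ratio factors and 0.21 with library totals, and 45.6% to 54% of calls were higher in naive libraries. None of the 8 genes passed the interaction test in its 5 alternatives, and the 28 ratios below 1 stayed 28 in 4. The labels give the 2 groups no shared replicate numbers, but they tie each naive library to a parental line. With that line as a block, 8 of the 8 genes passed. Depth did not limit the 8 genes, the lowest of which had 901 counts, whereas let-7 hairpin genes could not be tested.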
